A study of Drosophila melanogaster with 6 samples.

Results

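The genes described here are 10 genes of *Drosophila* sex determination and dosage compensation, chosen by their symbols from the 17606 genes of the deposited expression table: the RNAs *roX1* and *roX2*, the MSL complex genes *msl-1*, *msl-2*, *msl-3*, *mle* and *mof*, and the sex determination genes *Sxl*, *tra* and *dsx*. They were measured in whole larvae of the third instar that were homozygous for *ecd1*, a recessive temperature-sensitive allele of *ecdysoneless*, and in *w1118* control larvae. Animals of either genotype spent 10 days at 18°C, then 2 days at 29°C, so neither genotype was sampled without the shift. Each genotype had 3 biological replicates with total RNA of 8 larvae in each, and no source used here gives the sex of the animals. The values are normalized counts, which are reads per gene divided by a size factor of the sample.

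In flies, the *Sxl* protein is made in females, where it directs the splicing of *tra* RNA and keeps *msl-2* RNA from being translated. The *tra* protein in turn directs the female splicing of *dsx*, whose male and female proteins steer the sexual development of the body. In males, *msl-2* protein is made and builds the MSL complex with *msl-1*, *msl-3*, *mle*, *mof* and a *roX* RNA, and the complex raises the transcription of the X chromosome. The *roX* RNAs are abundant in males and scarce in females, while the RNAs of the other members are made in both sexes.

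The libraries held 78438192 to 118102006 recovered reads in *ecd1* and 74581798 to 107943245 in *w1118*, and the 10 members had 223 to 16471 reads per library in *ecd1* and 370 to 34324 in *w1118*. The mean insert size was 139 ± 0.503 bases in *ecd1* and 162 ± 1.37 bases in *w1118* (SD, n = 3 each), without overlap. The *white* gene (*w*), of which *w1118* is a null allele, had 2001, 1994 and 1636 normalized counts in *ecd1* against 85.7, 79.0 and 115 in *w1118*. The low values fit the *w1118* label. The paper lists its *ecd1* stock as *w* as well, so the high values do not follow from that listing. Differences of strain background cannot be told apart from *ecd1* here. The *ecd* gene had 2111, 2218 and 2397 in *ecd1* against 2085, 1563 and 1565 in *w1118* (log2 fold change 0.38, limma adjusted p = 0.0769, and 0.0106 without *w1118* replicate 1), and since *ecd1* changes the protein its level checks no label. A pair of libraries stood apart in larval stage markers. The glue gene *Sgs3* had 233485 normalized counts in *w1118* replicate 1, but 124, 42.8 and 84.5 in *ecd1* and 59.0 and 39.3 in the other *w1118* replicates. The 10 stage markers together came to 381271 in *ecd1* replicate 2, the lowest sum, against 5051890 and 3425550 in the other *ecd1* replicates and 8690670, 5859400 and 6237880 in *w1118*. These sums did not overlap between the genotypes. All 10 markers had a log2 fold change below 0 (median −3.04), and 0 passed in limma. For 4 of them every *ecd1* sample was lower, as for 26.9% of all genes tested. A difference in stage cannot be told apart from *ecd1* here. The calls of the members that change without *w1118* replicate 1 or *ecd1* replicate 2 are given beside each member.

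Of the 10 members, 2 rose in *ecd1* (*msl-1* and *msl-2*), 2 fell (*roX2* and *tra*) and 6 did not pass an adjusted p of 0.05 in limma over 12930 genes. Over all genes tested, 35.1% passed, 16% as higher and 19.1% as lower in *ecd1*, so the count among the members is close to the share among all genes. For 6 members no *ecd1* sample lay within the range of *w1118*, 2 of them higher and 4 lower in *ecd1*. The same held for 53.5% of all genes tested, 26.7% as higher and 26.9% as lower. Without *w1118* replicate 1, 1 member rose and 3 fell, and without *ecd1* replicate 2, 0 rose and 0 fell. Without *w1118* replicate 2, *w1118* replicate 3 or *ecd1* replicate 3, 0 rose and 1 fell, and without *ecd1* replicate 1, 2 rose and 2 fell. The median log2 fold change was −0.08 over the members and 0.01 over all genes tested.

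**Figure D1:**
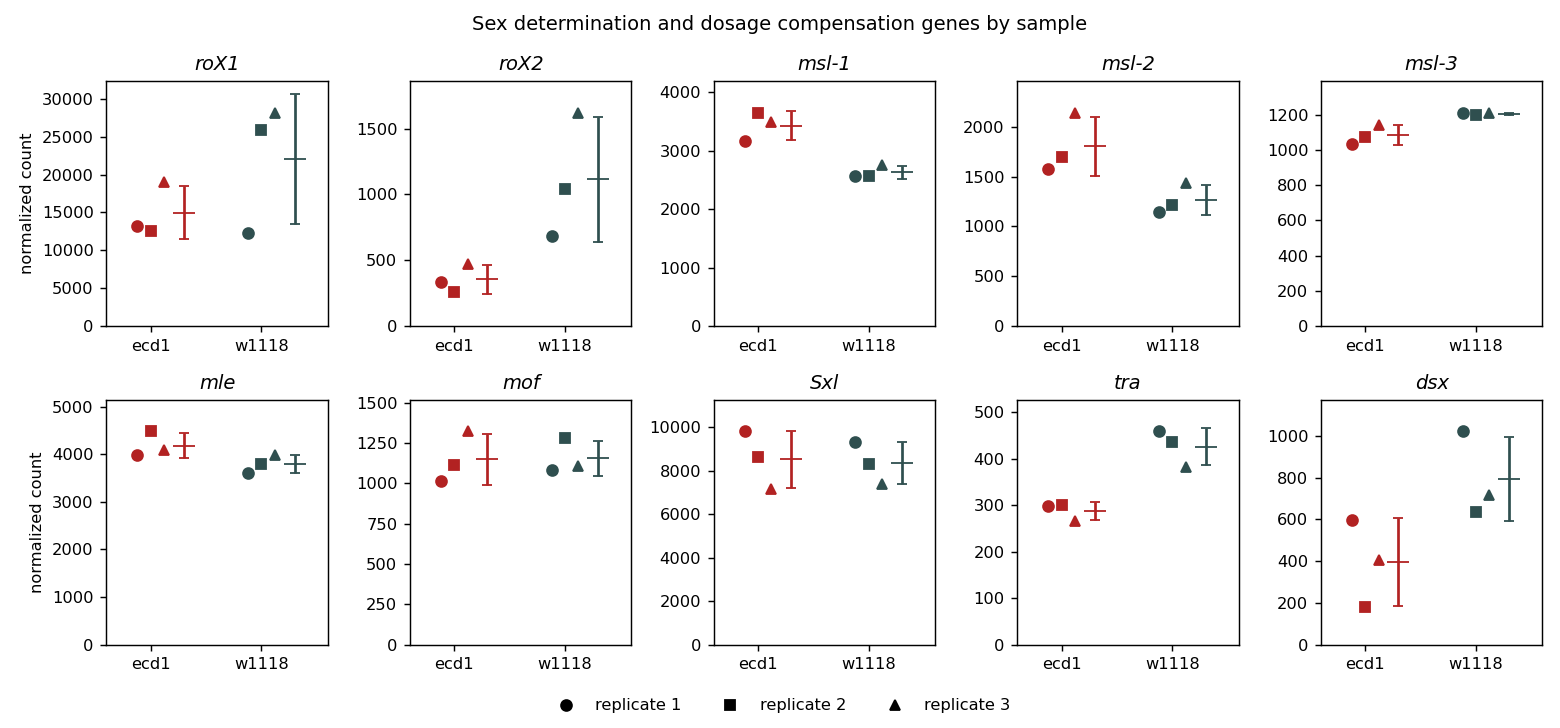
Normalized counts of the 10 members in each sample, with *ecd1* left of *w1118*, replicates 1 to 3 as circle, square and triangle, and the mean ± SD beside the points. The samples of *roX2*, *msl-3*, *tra* and *dsx* were all lower in *ecd1* and those of *msl-1* and *msl-2* all higher.

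The *roX2* RNA, the shorter of the RNAs in the male dosage compensation complex, fell in *ecd1*. It lies on X:11579065-11580432 (dm6, plus strand), and no other gene shares its exons. It had 332, 255 and 475 normalized counts in *ecd1* replicates 1 to 3 against 681, 1044 and 1619 in *w1118* replicates 1 to 3. Every *ecd1* sample was below every *w1118* sample, and *w1118* replicate 1 was the lowest of its genotype. The mean was 354 ± 111 in *ecd1* and 1114 ± 473 in *w1118* (SD, n = 3 each), and the log2 fold change was −1.61 (SE 0.36, limma adjusted p = 0.0150, 95% interval −2.46 to −0.76). Without *w1118* replicate 1 it was −1.92 (adjusted p = 0.00929), and without *ecd1* replicate 2 it was −1.40 and no longer passed (adjusted p = 0.0582). In RNA of whole larvae, fewer male cells and less *roX2* RNA per cell cannot be told apart.

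The *roX1* RNA, which can stand in for *roX2* in the complex, did not pass the test. It lies on X:3857230-3862697 (minus strand) and shares 392 of its exon bases with *ec* on the opposite strand, whose reads were not separated because the reads carry no strand. It had 13268, 12582 and 18976 normalized counts in *ecd1* against 12275, 25844 and 28132 in *w1118*. The genotypes overlapped, since *w1118* replicate 1 was the lowest of the 6 samples while the other *w1118* replicates were above all *ecd1* samples. The mean was 14942 ± 3510 in *ecd1* and 22084 ± 8571 in *w1118*, with a log2 fold change of −0.50 (SE 0.33, limma adjusted p = 0.281, 95% interval −1.29 to 0.29). Without *w1118* replicate 1 the log2 fold change was −0.88 and passed (adjusted p = 0.0168). When *w1118* replicate 3 was left out it was −0.28 (adjusted p = 0.578), and when *ecd1* replicate 2 was left out it was −0.39 (adjusted p = 0.525).

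Both *roX* RNAs can be read against each other within a sample, which needs no scaling between samples, and this comparison was added after the values were seen. For 100 normalized counts of *roX1* there were 2.50, 2.03 and 2.50 of *roX2* in *ecd1* against 5.55, 4.04 and 5.75 in *w1118*. The mean was 2.34 ± 0.274 in *ecd1* and 5.11 ± 0.936 in *w1118* (SD, n = 3 each). All *ecd1* samples were lower, *w1118* replicate 1 lay with its genotype, and the log2 difference was −1.11. The exact two-sided permutation test gave p = 0.1, the smallest that 3 against 3 samples allow. The log2 difference was −1.05 without *w1118* replicate 1 and −1.01 without *ecd1* replicate 2.

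Most of the listed male germline genes fell in *ecd1*, as *roX2* did, and their part in its level was not tested. Of 26 listed spermatocyte and spermatid markers, 25 were in the table and 24 were tested. Of these, 18 fell in *ecd1*, 0 rose and 6 did not pass, with a median log2 fold change of −1.87. With *w1118* replicate 1 left out 21 fell, and with *ecd1* replicate 2 left out 14 fell. Their summed level was 7216, 6821 and 11478 normalized counts in *ecd1* against 21370, 20160 and 29728 in *w1118*. The highest mean over the 6 samples was that of *bol*, a regulator of meiotic entry, which had 2537, 2441 and 2821 in *ecd1* against 2624, 3260 and 4134 in *w1118* and did not pass (log2 fold change −0.34, limma adjusted p = 0.167). It passed without *w1118* replicate 1 (−0.50, adjusted p = 0.0273). The gene *loopin-1*, named after its values were seen, encodes a sperm mitochondrial leucyl aminopeptidase and was at 685, 487 and 1393 in *ecd1* against 4056, 3242 and 5036 in *w1118* (log2 fold change −2.38, adjusted p = 0.00609). The largest changes among the markers were those of *Mst84Dd* (−4.19), *Mst84Dc* (−3.41), *Pglym87* (−3.35) and *dj* (−3.02). The smallest were those of *tomb* (−0.11) and *Taf12L* (0.08), which did not pass and were named after their values were seen.

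The listed Y-linked genes, which only males carry and most of which are transcribed in spermatocytes, were mostly lower in *ecd1* as well. Of 13 listed genes 12 were in the table and 7 were tested, and 6 fell in *ecd1*, 0 rose and *FDY* (log2 fold change −1.06, adjusted p = 0.0752) did not pass. *FDY* passed with the replicate block (adjusted p = 0.0222), in DESeq2 (0.0327) and without *w1118* replicate 1 (−1.34, adjusted p = 0.0346) or *ecd1* replicate 3 (−1.41, adjusted p = 0.0299). The number that fell was 6 without *w1118* replicate 1 and 5 without *ecd1* replicate 2. Their summed level was 124, 139 and 268 normalized counts in *ecd1* against 502, 579 and 776 in *w1118*. The axonemal dynein gene *kl-2* had 0.943, 0.764 and 1.19 in *ecd1* against 57.1, 34.2 and 67.2 in *w1118* (log2 fold change −4.73, adjusted p = 0.00180). Its relative *kl-3* had 2.83, 3.82 and 8.33 in *ecd1* against 26.2, 29.5 and 43.4 in *w1118* (−2.58), *kl-5* had a log2 fold change of −3.47, and *CCY* had 0.943, 3.06 and 0 in *ecd1* against 35.7, 22.4 and 43.4 in *w1118*. *ORY* was at 0 in the 3 *ecd1* samples and at 10.7, 0 and 3.28 in *w1118*, too low to be tested. Over all 16 genes of the Y chromosome that were tested, listed or not, 8 fell and 1 rose. Among autosomal genes 19.9% fell and 15.7% rose.

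Among 8 genes of the early germline and gonad, all of them tested, 1 fell in *ecd1* and 0 rose, where 19.1% and 16% of all genes did. The gene *bgcn* was the one that fell. It acts in the transition from stem cell daughter to differentiating germ cell. Its values were 163, 149 and 352 normalized counts in *ecd1* against 502, 579 and 771 in *w1118* (log2 fold change −1.57, limma adjusted p = 0.0162). The call of *bgcn* was lost without *w1118* replicate 3 (adjusted p = 0.0554), *ecd1* replicate 1 (0.0523) or *ecd1* replicate 2 (0.0605). In the fit with a replicate block, 2 of the 8 fell. The summed level of the 8 genes was 1515, 1191 and 1714 in *ecd1* against 2956, 2155 and 2419 in *w1118*, without overlap. The largest part of each sum was *ovo*, with 882, 605 and 671 in *ecd1* against 2079, 892 and 886 in *w1118*. It did not pass (log2 fold change −0.73, limma adjusted p = 0.148). Of the 8 genes, 7 had a log2 fold change below 0, and *vas* went the other way (0.21). Both genes were named after their values were seen. For 3 of the 8 every *ecd1* sample was lower, as for 26.9% of all genes tested.

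**Figure D2:**
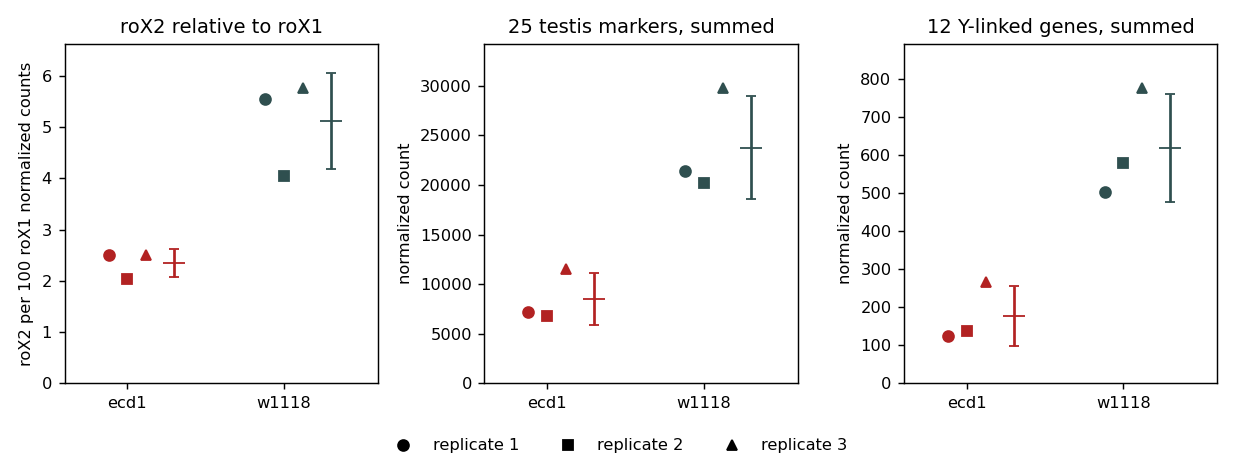
From left to right, normalized counts of *roX2* per 100 of *roX1*, the summed normalized counts of 25 testis markers and those of 12 Y-linked genes, with *ecd1* left of *w1118*, replicates as symbols and the mean ± SD. In each of the 3 plots every *ecd1* sample is below every *w1118* sample.

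Over the 6 samples, 1132 of 10354 genes whose normalized counts averaged at least 100 correlated with *roX2* above a Pearson r of 0.9 on the log2 scale, against 173 for *roX1*. The 3 genes most like *roX2* were *CG32651*, *CG2247* and *lncRNA:CR32652* (r = 0.998 each), all on the X chromosome, which holds 16.2% of the genes compared. *CG2247* starts 25858 bases beyond the end of *roX2*, and *CG32651* and *lncRNA:CR32652* start 824184 and 830586 bases beyond it. The non-coding RNA *lncRNA:CR32652* had 181, 123 and 256 normalized counts in *ecd1* against 452, 828 and 1277 in *w1118*. The 3 genes most like *roX1* were *bam*, the germ cell differentiation factor (r = 0.997), *CG9925* (r = 0.994) and *CG5913* (r = 0.993), all on 3R. The *roX* RNAs correlated with each other at 0.820. These correlations run over 6 samples of both genotypes, so differences between the genotypes enter them. Genes of a sample are also not independent of each other.

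The gene *msl-2*, whose protein is the male-limiting subunit and carries the ubiquitin ligase activity of the complex, rose in *ecd1*. It lies on 2L:3462218-3466112 (minus strand), where *mir-4971* and a transposon fragment share 12.1% of its exon bases together with another small feature. It had 1578, 1697 and 2140 normalized counts in *ecd1* against 1147, 1216 and 1435 in *w1118*, and the genotypes did not overlap. The mean was 1805 ± 296 in *ecd1* and 1266 ± 150 in *w1118*, with a log2 fold change of 0.51 (SE 0.15, limma adjusted p = 0.0424). The call is close to the threshold. It was lost without *w1118* replicate 1 (0.44, adjusted p = 0.0732), replicate 2 (0.48, adjusted p = 0.109) or replicate 3 (0.60, adjusted p = 0.0533), and without *ecd1* replicate 2 (0.54, adjusted p = 0.0986) or replicate 3 (0.38, adjusted p = 0.113).

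The gene *msl-1*, which encodes the scaffold that the other proteins bind, rose less steeply. It lies on 2L:18683720-18688800 (minus strand) and had 3164, 3648 and 3487 normalized counts in *ecd1* against 2564, 2568 and 2765 in *w1118*. Each *ecd1* sample was above each *w1118* sample. The mean was 3433 ± 247 in *ecd1* and 2632 ± 115 in *w1118*, with a log2 fold change of 0.38 (SE 0.10, limma adjusted p = 0.0223). The call was lost without *w1118* replicate 2 (0.36, adjusted p = 0.0714) or replicate 3 (0.42, adjusted p = 0.0540), and without *ecd1* replicate 2 (0.34, adjusted p = 0.0916) or replicate 3 (0.37, adjusted p = 0.0709).

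The other proteins of the complex did not pass the test. The gene *msl-3* on 3L:7123213-7125533 encodes the chromodomain protein that reads a histone mark of active genes, and it had 1033, 1070 and 1143 normalized counts in *ecd1* against 1209, 1197 and 1207 in *w1118*. These samples did not overlap, but the log2 fold change was −0.16 (SE 0.10, limma adjusted p = 0.261). The gene *mle* on 2R:5974857-5980778 encodes the RNA helicase that remodels the *roX* RNAs, and it had 3974, 4476 and 4091 in *ecd1* against 3593, 3795 and 3983 in *w1118* (log2 fold change 0.14, adjusted p = 0.269). The *ecd1* replicate 1 value was just below that of *w1118* replicate 3. The histone acetyltransferase gene *mof* on X:5873840-5876853 had 1015, 1110 and 1321 in *ecd1* against 1079, 1278 and 1106 in *w1118*. Its log2 fold change was −0.01 (adjusted p = 0.953, 95% interval −0.34 to 0.32), and its sign was positive under TMM scaling (0.02) and in edgeR (0.02).

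The sex determination gene *Sxl*, which encodes the RNA-binding switch protein at the top of the hierarchy, had similar levels in both genotypes. It lies on X:7074550-7098053 (minus strand) with 25 annotated transcripts and had 9811, 8614 and 7160 normalized counts in *ecd1* against 9340, 8327 and 7409 in *w1118*. The ranges overlapped almost fully, and same-numbered samples of the genotypes lay close to each other. The mean was 8528 ± 1328 in *ecd1* and 8359 ± 966 in *w1118*, with a log2 fold change of 0.02 (SE 0.15, limma adjusted p = 0.913, 95% interval −0.32 to 0.37). It was −0.06 without *w1118* replicate 3 and −0.08 without *ecd1* replicate 1.

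The gene *tra*, which encodes the splicing regulator that *Sxl* switches on in females, fell in *ecd1*. It lies on 3L:16590059-16591050 (minus strand), and 74 of its exon bases (8.58%) are shared with *l(3)73Ah* on the opposite strand. It had 297, 300 and 265 normalized counts in *ecd1* against 458, 436 and 382 in *w1118*, and every *ecd1* sample was lower. The mean was 288 ± 19.3 in *ecd1* and 426 ± 39.3 in *w1118*, with a log2 fold change of −0.56 (SE 0.15, limma adjusted p = 0.0279). The RNA of *tra* is made in both sexes, and the counts per gene do not separate its male and female forms. The call was lost without *w1118* replicate 2 (−0.54, adjusted p = 0.0855) or replicate 3 (−0.64, adjusted p = 0.0523), and without *ecd1* replicate 1 (−0.59, adjusted p = 0.0603), replicate 2 (−0.59, adjusted p = 0.0805) or replicate 3 (−0.51, adjusted p = 0.0775).

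The gene *dsx*, the last of the hierarchy, had lower values in *ecd1* that did not pass the test. It lies on 3R:7924323-7967408 (minus strand) and had 600, 182 and 406 normalized counts in *ecd1* against 1022, 638 and 720 in *w1118*. The genotypes did not overlap, although *ecd1* replicate 1 came close to *w1118* replicate 2. The mean was 396 ± 209 in *ecd1* and 793 ± 202 in *w1118*, with a log2 fold change of −1.13 (SE 0.43, limma adjusted p = 0.0832). Replicate 1 was the highest of each genotype and replicate 2 the lowest, and in the fit with a replicate block the adjusted p was 0.0195, where 36.5% of all genes passed. It also passed without *ecd1* replicate 1 (−1.51, adjusted p = 0.0403) and in DESeq2 (−1.01, adjusted p = 0.0416), where 42.6% of all genes passed. The log2 fold change was −0.65 when *ecd1* replicate 2, the lowest sample, was left out (adjusted p = 0.159) and −0.94 when *w1118* replicate 1, the highest, was left out (adjusted p = 0.168).

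The deposited splicing table lists 1389 introns that passed the thresholds of the authors, and 2 of them belong to the members, both to *Sxl*. They start from the same donor site and end at acceptor sites 48 bases apart. The longer runs over X:7092123-7098000 (5878 bases, 10 of 25 transcripts) and the shorter over X:7092171-7098000 (5830 bases, 2 transcripts). Both lie in the 5′ part of the gene, before the start codon at X:7091748-7091750 that all annotated transcripts with these acceptors use. The exon that marks the male form of *Sxl*, taken here as the most common of the exons that the intron at X:7087660-7091673 skips, has its 3′ end at X:7088578 and is 172 or 190 bases long in 9 transcripts. Neither the 5 introns that join it nor the intron that skips it are in the table. It is in 3 of the 13 transcripts with the first acceptor and in 4 of the 4 with the second. No intron of *tra* (3 annotated), *dsx* (6) or *msl-2* (2) is listed. The table holds only introns past the thresholds, and the direction of their change is the authors' comparison and was not used, so the balance of male and female forms was not measured here.

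Per kilobase of exon, *roX1* was the highest member in both genotypes and *dsx* the lowest. In *ecd1* the normalized counts per kilobase were 2733 for *roX1*, 928 for *Sxl*, 901 for *mle*, 684 for *msl-1*, 549 for *msl-3*, 470 for *msl-2*, 381 for *mof*, 334 for *tra*, 259 for *roX2* and 43.2 for *dsx*. In *w1118* they were 4039 for *roX1*, 909 for *Sxl*, 817 for *mle*, 815 for *roX2*, 611 for *msl-3*, 524 for *msl-1*, 494 for *tra*, 383 for *mof*, 329 for *msl-2* and 86.5 for *dsx*. In each genotype the ranges of the 3 samples overlapped for 5 of the 9 neighbouring pairs in this order, among them *Sxl* and *mle* in both and *roX2* with both of its neighbours in *w1118*. The place of *roX2* was 9 in *ecd1* and 4 in *w1118*, and that of *msl-2* was 6 in *ecd1* and 9 in *w1118*. The order was the same with the length of the longest transcript.

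**Figure D3:**
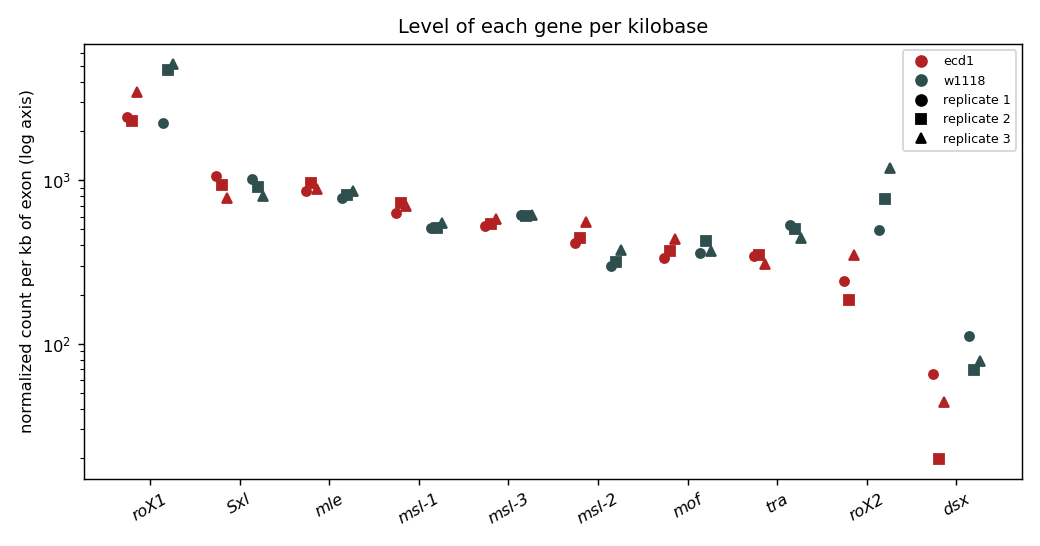
Normalized counts per kilobase of merged exon (log axis) for the members in their order in *ecd1*, with the 3 *ecd1* samples left of the 3 *w1118* samples for each gene and replicates as symbols. The *roX2* points are between 187 and 347 in *ecd1* and between 498 and 1183 in *w1118*.

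Other genes of the same pathways, chosen by role, were counted in the same fit. Of 44 such genes 43 were tested, of which 4 rose in *ecd1*, 2 fell and 37 did not pass, with a median log2 fold change of 0.05. Over all genes tested, 16% rose and 19.1% fell, and the same shares stand beside the counts of the single lists below. Without *w1118* replicate 1, 9 rose and 2 fell, and without *ecd1* replicate 1, 6 rose and 1 fell. When any of the others was left out, 2 rose, and 0 fell without replicate 2 of either genotype, 1 without *ecd1* replicate 3 and 2 without *w1118* replicate 3. Among 10 X-signal elements and their partners, which set *Sxl* in the embryo, 1 rose and 2 fell. The cytokine gene *upd1* rose, with 443, 645 and 584 normalized counts in *ecd1* against 108, 97.9 and 116 in *w1118* (log2 fold change 2.35, SE 0.20, limma adjusted p = 0.00179). It passed under every one of 14 alternatives. The helix-loop-helix inhibitor gene *emc* fell, with 3966, 4118 and 4576 in *ecd1* against 6692, 6134 and 4990 in *w1118* (−0.48, adjusted p = 0.0289), but not with the replicate block (adjusted p = 0.0564). It was lost without *w1118* replicate 2 (adjusted p = 0.0837), *ecd1* replicate 1 (0.0805) or *ecd1* replicate 2 (0.0972). The repressor gene *dpn*, named after its values were seen, fell at a low level (32.1, 15.3 and 17.9 in *ecd1* against 96.4, 57.8 and 47.5 in *w1118*, adjusted p = 0.0242). That call was lost without *w1118* replicate 2 (adjusted p = 0.0559), *ecd1* replicate 2 (0.0892) or *ecd1* replicate 3 (0.0664).

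Among 14 cofactors of *Sxl* splicing, including the writers of the m6A mark on RNA, 2 rose and 0 fell. The gene *pps*, whose protein works with *Sxl* on its own RNA, rose, with 5658, 6310 and 6424 normalized counts in *ecd1* against 4358, 3673 and 3983 in *w1118* (log2 fold change 0.62, SE 0.10, limma adjusted p = 0.00664), and it passed under every one of 14 alternatives. The m6A writer gene *Flacc* rose, with 4653, 5909 and 5995 in *ecd1* against 4430, 2800 and 2434 in *w1118* (0.82, adjusted p = 0.0345), where *w1118* replicate 1 was near the lowest *ecd1* sample. With the replicate block *Flacc* did not pass (adjusted p = 0.0569), nor without *w1118* replicate 2 (0.0955), *w1118* replicate 3 (0.0937), *ecd1* replicate 2 (0.114) or *ecd1* replicate 3 (0.0996). Without *w1118* replicate 1, 6 of the 14 rose, and without *ecd1* replicate 2, 1 rose.

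Among 7 cofactors and downstream regulators of *tra* and *dsx*, 6 were tested and 1 rose. This was *tra2*, the partner of *tra* in splicing, with 2392, 2557 and 2780 normalized counts in *ecd1* against 1796, 1985 and 2129 in *w1118* (log2 fold change 0.39, limma adjusted p = 0.0334). Each *ecd1* sample was higher, but the call was lost without *w1118* replicate 2 (adjusted p = 0.0821) or replicate 3 (adjusted p = 0.0565) and without *ecd1* replicate 2 (adjusted p = 0.102) or replicate 3 (adjusted p = 0.108). Of the 6 MSL cofactors and of the 7 genes of the NSL complex, which also contains *mof*, 0 rose and 0 fell in limma. With the replicate block the NSL gene *Chro* fell (−0.40, adjusted p = 0.0379), and without *w1118* replicate 1 the NSL gene *wds* rose (0.45, adjusted p = 0.0456). In DESeq2 the NSL gene *dgt1* rose (0.35, adjusted p = 0.0491) and the MSL cofactor gene *Top2* fell (−0.38, adjusted p = 0.0363). These 4 genes were named after their values were seen.

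Among 8 genes that *dsx* is known to regulate, 6 were tested, 2 rose and 0 fell. Over all genes tested, 16% rose and 19.1% fell. The abdominal patterning gene *bab1* had 175, 159 and 169 normalized counts in *ecd1* against 108, 103 and 96.7 in *w1118* (log2 fold change 0.70, limma adjusted p = 0.0229). The growth factor gene *bnl* had 1775, 1331 and 1218 in *ecd1* against 886, 1057 and 976 in *w1118* (0.55, adjusted p = 0.0415, and 0.0609 with the replicate block). Neither gene overlapped between the genotypes. The call of *bab1* was lost when any sample except *w1118* replicate 1 was left out (adjusted p up to 0.0802), and that of *bnl* when any sample except *ecd1* replicate 3 was left out (adjusted p up to 0.101). Without *ecd1* replicate 2, *w1118* replicate 2 or *w1118* replicate 3, 0 of the 6 rose, and when any other sample was left out 1 rose.

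**Figure D4:**
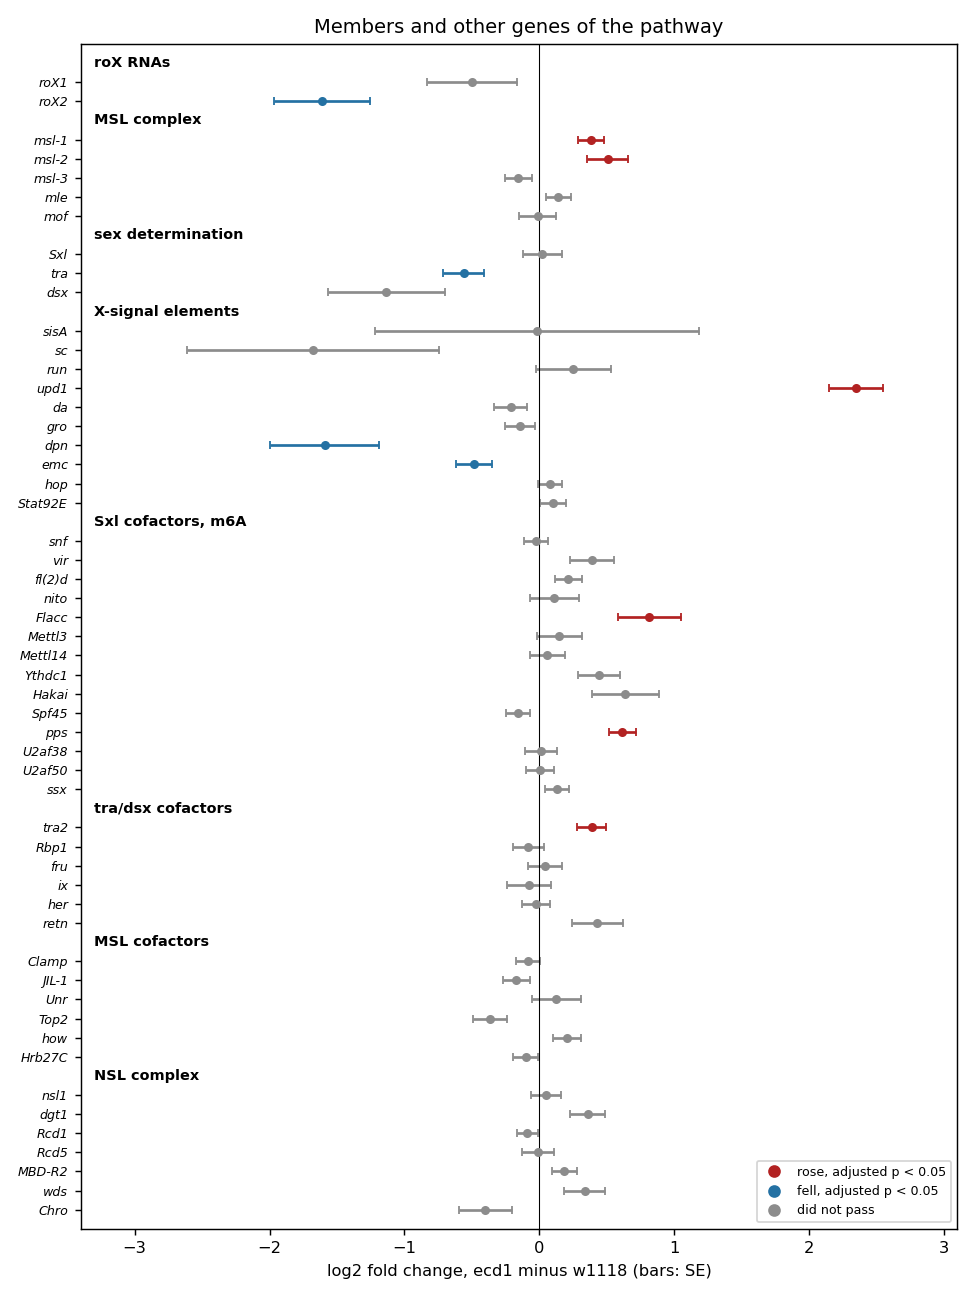
Log2 fold change of the 10 members and 43 other pathway genes, *ecd1* minus *w1118*, with bars for the SE of limma, in red where a gene rose, in blue where it fell and in grey where it did not pass. The genes that passed were *roX2*, *msl-1*, *msl-2*, *tra*, *upd1*, *dpn*, *emc*, *Flacc*, *pps* and *tra2*.

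Because the MSL complex acts on the X chromosome, X-linked genes were set against autosomal genes in each sample. The median over 2083 X-linked genes minus the median over 10678 autosomal genes, each centred on its own mean, was 0.02, 0.03 and 0.04 on the log2 scale in *ecd1* against 0.04, −0.06 and −0.07 in *w1118*. The genotypes overlapped, since *w1118* replicate 1 was the highest of the 6 samples. The difference was 0.06, and the exact two-sided permutation test gave p = 0.4. Without *w1118* replicate 1 the difference was 0.10. Without the filter on low values it was 0.07, and the permutation test gave p = 0.1, the smallest that 3 against 3 samples allow. Among X-linked genes 17.5% rose and 15.4% fell in *ecd1*, and among autosomal genes 15.7% rose and 19.9% fell.

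**Figure D5:**
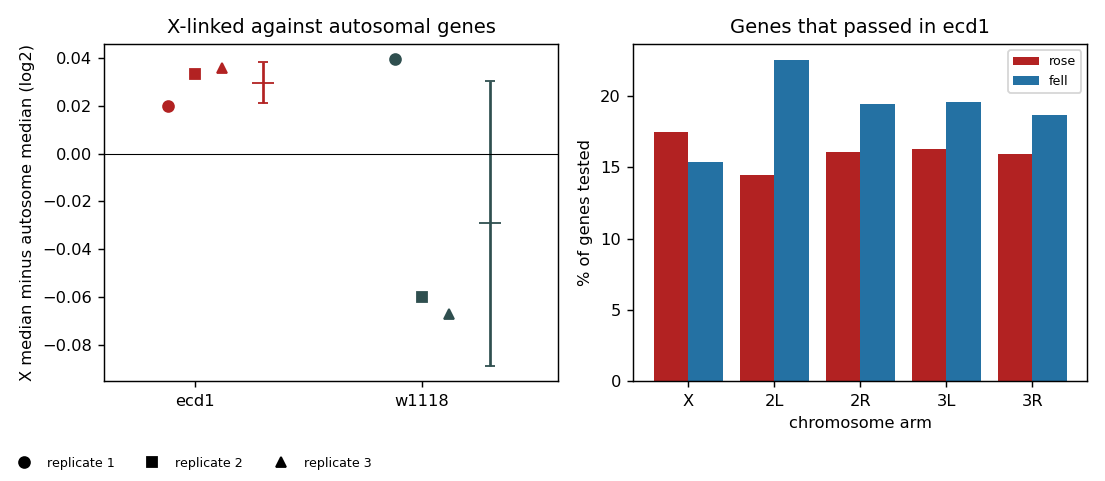
Left, the median of X-linked genes minus that of autosomal genes in each sample (log2 scale, gene means removed), with *ecd1* left of *w1118*, replicates as symbols and the mean ± SD. Right, the share of genes tested on each chromosome arm that rose or fell in *ecd1*, where X is 17.5% and 15.4% and 2L is 14.5% and 22.5%.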

How the data were processed

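Total RNA of whole larvae was sequenced as unstranded read pairs. The authors used TopHat2 2.0.10 for alignment to dm6 and featureCounts 1.6.4 for a count per gene, and divided each count by a DESeq2 size factor. The result is the deposited signal, called normalized count here. Its steps gave whole reads in 100% of values above 0, within 0.05 of a read. Insert sizes, read numbers and the fraction of reads per strand come from the deposited quality report. The authors also deposited a deltaPSI score per intron, of which only the introns listed were used, and log2 fold changes with p-values and gene ontology lists, which were not used.

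The 12930 genes whose normalized counts averaged at least 10 were tested with limma 3.58.1 (trend, R 4.3.3) on log2(normalized count + 1), *ecd1* minus *w1118*, with Benjamini-Hochberg adjustment over all of them. Fold changes are on this scale and understate the change of low genes. As alternatives, edgeR 4.0.16 and DESeq2 1.42.0 on recovered reads called 4641 and 5483 genes, against 4538 in limma. Pseudocounts, filters, TMM scaling, a fit without trend, a replicate block and the omission of each sample were also tried. The scripts were tested on simulated data. Annotation came from Ensembl release 115 on the same build, which held 17527 of 17606 identifiers.

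The members and lists were chosen with earlier results of these data known. Besides all members, up to 4 genes per list were named, those with the largest change among genes past the threshold whose mean was 50 or more, along with set Y-linked genes, the testis marker with the highest mean, *w*, *ecd* and the 3 genes most like each *roX* RNA.

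Replicate numbers were checked as pairs. Deviations from the genotype mean correlated at 0.209, 0.232 and 0.225 between samples of the same number and at −0.274 to 0.0541 between others. The numbers were therefore used as a block in an alternative fit and in exact sign tests. The main limma fit and the permutation tests do not use the pairing. The labels do not say what they stand for. The limma p-values set the difference between the genotypes against the spread between these samples, moderated over all genes tested.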

Additional observations from a re-analysis of the deposited data

How the results depend on the processing

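The 10 members were fitted under 14 alternatives each, and 113 of these 140 fits kept both the direction and the side of the threshold. The sign turned for *mof*, at 0.0214 in edgeR, 0.0245 with TMM scaling and −0.117 to 0.0725 when samples were left out in turn, and for *Sxl*, at −0.0836 to 0.144 when samples were left out. The cause was not tested. The stage and yolk genes that were high in *w1118* replicate 1 also turned, with ranges over the omitted samples of −5.59 to 0.656 for *Sgs3*, −2.43 to 0.0780 for *Yp2* and −1.21 to 0.946 for *Yp3*, each highest without that replicate. Without a trend in limma, 1 member rose in place of 2, since *msl-2* no longer passed (adjusted p = 0.0634), and 2 pathway genes rose and 1 fell, against 4 and 2. In DESeq2 6 pathway genes rose and 4 fell. When samples were left out in turn, 0 to 2 members rose and 0 to 3 fell, 2 to 9 pathway genes rose and 0 to 2 fell, and the difference between X-linked and autosomal genes was 0.0397 to 0.104. Over all genes, 18.3% to 40% passed in these fits, against 35.1% with all samples. In cytosolic ribosomal protein genes, an alternative added after seeing the data, the difference between X-linked and autosomal genes was −0.0429.

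With the replicate number as a block, 2 members rose and 3 fell, because *dsx* passed. Besides *dsx*, the block ended the calls of *emc*, *Flacc* and *bnl* and added those of *FDY* and *Chro*, and it changed no other call among the genes named. It gave p = 0.25 for *roX2* relative to *roX1* and p = 0.5 for the X-linked genes by exact sign tests, where 3 pairs allow no p below 0.25. TMM scaling moved the median of all genes by 0.04 on the log2 scale.

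With 3 samples a genotype, small changes such as those of *msl-3* and *mle* could not be told from the spread between samples. Counts per gene hold no sex-specific isoforms, and the number of male larvae per sample was not recorded in the sources used here.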

Other observations

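The yolk protein genes, female products under *dsx* control, were highest in *w1118* replicate 1, and were named after their values were seen. *Yp3* had 127, 33.6 and 42.8 normalized counts in *ecd1* against 592, 29.5 and 28.7 in *w1118*, and *Yp2* had 1.89, 8.40 and 5.95 in *ecd1* against 137, 5.90 and 3.28 in *w1118*. Neither passed the test (limma adjusted p = 0.773 for *Yp3* and 0.410 for *Yp2*).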
